A study of Mus musculus with 40 samples.

Results

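The cell division genes Ccnb1ip1, Bub1b, Pttg1, Mcm6 and Rec8 were followed across every strain of a mouse hypothalamus RNA-seq series. They are 5 of the 23955 gene symbols counted, and they were picked by name because their levels had been seen to fall at separate heights among the strains. The values that chose them are therefore given as a description, without a test. In 4 of the genes an empty interval separated low lines from high ones. Rec8 differed: no interval as wide divided its lines, although 4 lines stood apart at the top. The description of 2 levels therefore does not hold for Rec8.

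The series holds 40 libraries of untreated animals, 1 per strain, all labelled hypothalamus. Of these, 36 are BXD recombinant inbred lines, each an inbred strain derived from crosses between C57BL/6J and DBA/2J, so that a line carries one parent's allele or the other's at nearly every locus. The other 4 are C57BL/6J, DBA/2J and the hybrids B6D2F1 and D2B6F1, which carry 1 copy from each parent and which the labels count among the parental strains. For each BXD line, RNA of 3 to 6 hypothalami was pooled before 1 library was made, while pooling for the other 4 strains, sex and age are not given in the sources used here. Animals within a line are thus not seen separately, and every spread and p-value below measures differences between strains, each known from a single library.

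The depth of a library was between 12.2 and 40.4 M counted reads (median 23.6 M). Levels are given as CPM, reads of a gene per M reads of its library after TMM scaling. Intervals in parentheses are exact Poisson 95% intervals, which cover counting error only, as would any limit set by a count of 0. The tissue label held against its markers: 19 of 20 hypothalamic genes (neuropeptides such as Pomc, Agrp, Hcrt and Oxt, and regulators such as Sim1 and Nkx2-1) had a mean of at least 1 CPM, and their sum ran from 535 to 1209 CPM over the lines. In whole tissue, fewer cells of a type and less RNA per cell cannot be told apart.

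The genes act at successive points of chromosome duplication and separation. Mcm6 is a subunit of the MCM ring, the helicase that is loaded onto replication origins and opens DNA ahead of the fork. Bub1b encodes BubR1, part of the mitotic checkpoint complex that holds back anaphase until every chromosome is attached to the spindle, and Pttg1 encodes securin, the inhibitor of separase that the anaphase-promoting complex destroys to start separation. Rec8 is the meiotic form of the cohesin ring's kleisin subunit, which separase cuts. Ccnb1ip1, also called Hei10, is a RING-domain ligase that helps to decide which recombination sites of meiosis become crossovers. Hypothalamic tissue contains few dividing cells and no meiotic ones, and each of these transcripts was nonetheless counted in at least part of the strains.

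Up to 250 bases before the start of 4 of the genes are shown because the first 3 belong to genes that parted the lines, and because division genes are often driven through E2F-type sites and CCAAT boxes in this interval. The sequences are RefSeq's, of GRCm38.p6, a C57BL/6J assembly, and all 5 genes matched the RefSeq promoter table; DBA/2J sequence was not used here. Each runs 5′ to 3′ on the gene's own strand. Capitals mark matches on either strand to the E2F-type motifs TTTGGCGC, TTTCCCGC, TTTCGCGC or TTTGCCGC, or to the CCAAT box, which reads attgg when it lies on the other strand. The windows are chr1:128359706-128359955 on the minus strand for Mcm6, chr2:118597961-118598210 on the plus strand for Bub1b and chr14:50795729-50795978 on the minus strand for Ccnb1ip1. For Rec8 only the outer 86 bases are printed, chr14:55617916-55618001 on the plus strand, because the rest lies within the gene's annotated span.
Mcm6: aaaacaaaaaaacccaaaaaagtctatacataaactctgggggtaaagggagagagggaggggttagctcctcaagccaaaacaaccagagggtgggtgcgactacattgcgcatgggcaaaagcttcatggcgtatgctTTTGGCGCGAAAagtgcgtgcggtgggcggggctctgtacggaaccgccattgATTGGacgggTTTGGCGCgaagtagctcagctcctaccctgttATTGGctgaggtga
Bub1b: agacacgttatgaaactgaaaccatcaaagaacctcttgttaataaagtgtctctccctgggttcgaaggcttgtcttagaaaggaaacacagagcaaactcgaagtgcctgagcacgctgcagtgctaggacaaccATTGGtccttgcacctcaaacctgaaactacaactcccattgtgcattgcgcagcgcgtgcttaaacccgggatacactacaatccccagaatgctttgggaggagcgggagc
Ccnb1ip1: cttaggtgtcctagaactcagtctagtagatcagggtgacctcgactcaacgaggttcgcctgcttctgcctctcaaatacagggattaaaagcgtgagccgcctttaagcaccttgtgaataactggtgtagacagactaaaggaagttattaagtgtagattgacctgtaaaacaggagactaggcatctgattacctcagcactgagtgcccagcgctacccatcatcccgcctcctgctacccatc
Rec8: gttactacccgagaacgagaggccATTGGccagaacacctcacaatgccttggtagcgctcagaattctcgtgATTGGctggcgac

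The Mcm6 window held 3 E2F-type matches, at 110, 106 and 47 bases before the start, the first of them overlapping the second, and 2 CCAAT boxes, at 57 and 14 bases. Bub1b held 1 CCAAT box, 113 bases before the start, and the printed stretch of Rec8 held 2. No match to either motif was found in the window of Ccnb1ip1. The window of Pttg1 overlaps annotated first exons, so it is not printed and not described. The motif TTTGAA, known from genes repressed outside division, was in none of the printed sequences. Over 32851 RefSeq windows of the same length, 1.86% held an E2F-type match, 33.85% a CCAAT box and 15.99% TTTGAA. The cyclic AMP response element TGACGTCA and its core TGACG, in 1.55% and 17.8% of windows, were also in none of them. These are matches of letters in one parent's sequence and say nothing about binding.

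To describe separation, the 36 line values of a gene, as log2 CPM with a prior count of 2, were sorted and the widest step between neighbours was taken with at least 6 lines on each side. A step of at least 1 log2 unit is called a gap here. It runs between the nearest lines of either side, so levels only 1 log2 unit apart at their centres make no gap once lines vary around them. All 5 genes passed the minimum mean of 1 CPM that was set for this count, and 4 of the 5 had a gap, against 69 of 14487 genes overall (0.476%). Nothing is read from that contrast, since the genes were picked for it. Mcm6, with a step of 1.49, had the smallest gap of the 4, and Rec8, with 0.55, was the member outside the limit.

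**Figure D1:**
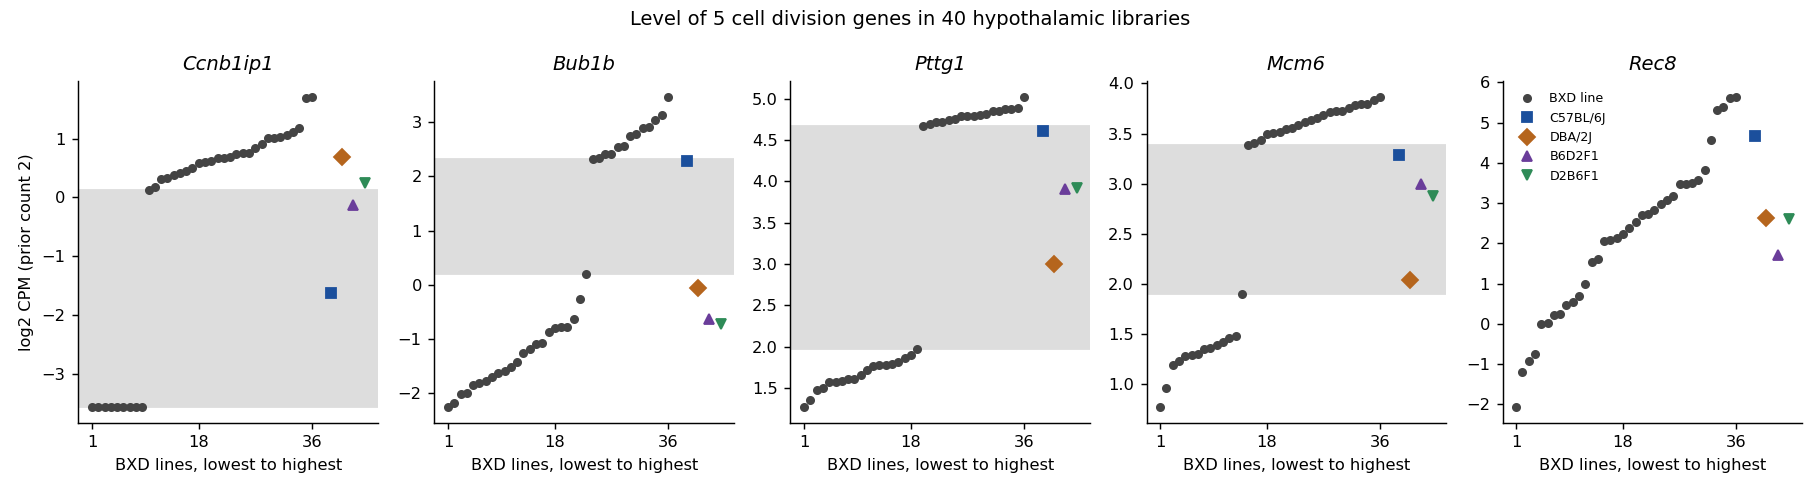
Level of each gene in the 40 libraries, as log2 CPM with a prior count of 2. Dark points are the 36 BXD lines sorted from lowest to highest, coloured symbols are the parents and F1 hybrids, and the grey band is the gap between lines. In Ccnb1ip1 the 9 lowest lines have 0 reads, and Rec8 has no band.

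Mcm6, the helicase subunit on chromosome 1, was low in 14 lines and high in 22. The low lines ran from 1.62 to 3.65 CPM (28 to 97 reads) and the high lines from 10.4 to 14.5 CPM (130 to 397 reads), with a median of 11.3 CPM over all 36. The highest of the low lines was BXD29 and the lowest of the high lines BXD90, 2.85-fold apart, and no line lay between them. The 4 other libraries all did: C57BL/6J was at 9.66 CPM (8.48 to 10.96), DBA/2J at 4.03 (3.30 to 4.87), B6D2F1 at 7.91 (6.88 to 9.05) and D2B6F1 at 7.29 (6.39 to 8.27). The interval of C57BL/6J reached into the range of the high lines and that of DBA/2J into the range of the low ones, while both hybrids stayed clear of either range and close to the parental mean of 6.84 CPM.

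Bub1b, the checkpoint kinase gene on chromosome 2, was low in 23 lines and high in 13. The low lines held 3 to 23 reads, 0.124 to 1.06 CPM, and the high lines 91 to 301 reads, 4.94 to 11.04 CPM, with a median of 0.495 CPM over the 36. BXD45 and BXD96 bounded the gap, 4.65-fold apart. The high lines were BXD43, BXD48, BXD49, BXD51, BXD63, BXD67, BXD70, BXD75, BXD81, BXD95, BXD96, BXD98 and BXD100. C57BL/6J, with 121 reads and 4.81 CPM (3.99 to 5.75), stood at the lower edge of these, and DBA/2J, with 23 reads and 0.874 CPM (0.554 to 1.31), among the low lines. The hybrids did not stand between their parents: B6D2F1 had 15 reads, 0.562 CPM (0.315 to 0.927), and D2B6F1 had 17 reads, 0.520 CPM (0.303 to 0.833), against a parental mean of 2.84 CPM. Both hybrid intervals overlapped that of DBA/2J and lay below that of C57BL/6J.

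Pttg1, the securin gene on chromosome 11, split the lines most evenly, with 19 low and 17 high. The low lines ran from 2.32 to 3.83 CPM (40 to 87 reads) and the high lines from 25.5 to 32.5 CPM (540 to 1338 reads), and the median over the 36 lines was 3.73 CPM. From BXD81, the top of the low lines, to BXD43, the bottom of the high ones, the levels differed 6.66-fold. C57BL/6J had 24.3 CPM (22.4 to 26.3), next to the high lines. DBA/2J had 209 reads and 7.94 CPM (6.90 to 9.09), above every low line, of which the highest had an upper bound of 4.76 CPM. B6D2F1 with 14.9 CPM (13.5 to 16.5) and D2B6F1 with 15.1 CPM (13.8 to 16.5) lay in the middle of the gap, near the parental mean of 16.1 CPM, with overlapping intervals.

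Ccnb1ip1, the crossover ligase gene on chromosome 14, had a step of 3.70, a size that depends on the prior count because the low lines had none. No read was counted in 9 lines, BXD43, BXD45, BXD49, BXD51, BXD56, BXD84, BXD85, BXD98 and BXD101, which at 3 counts per library allows a level of up to 0.174 CPM. The other 27 lines held 19 to 79 reads, 1.01 to 3.20 CPM, the lowest being BXD65, and the median over the 36 was 1.42 CPM. By their point values, the high lines were thus at least 5.80-fold higher than the limit of 3 counts per library in the lines at 0. The exact intervals lay closer. Their highest upper bound in the lines at 0 was 0.214 CPM, and their lowest lower bound in the high lines was 0.607 CPM. The parental order was opposite to that of the other genes: DBA/2J had 40 reads, 1.52 CPM (1.09 to 2.07), and C57BL/6J had 6 reads, 0.239 CPM (0.0875 to 0.519). The hybrids had 0.825 CPM (0.517 to 1.25, B6D2F1) and 1.10 CPM (0.772 to 1.53, D2B6F1), with a parental mean of 0.879 CPM inside both intervals.

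**Figure D2:**
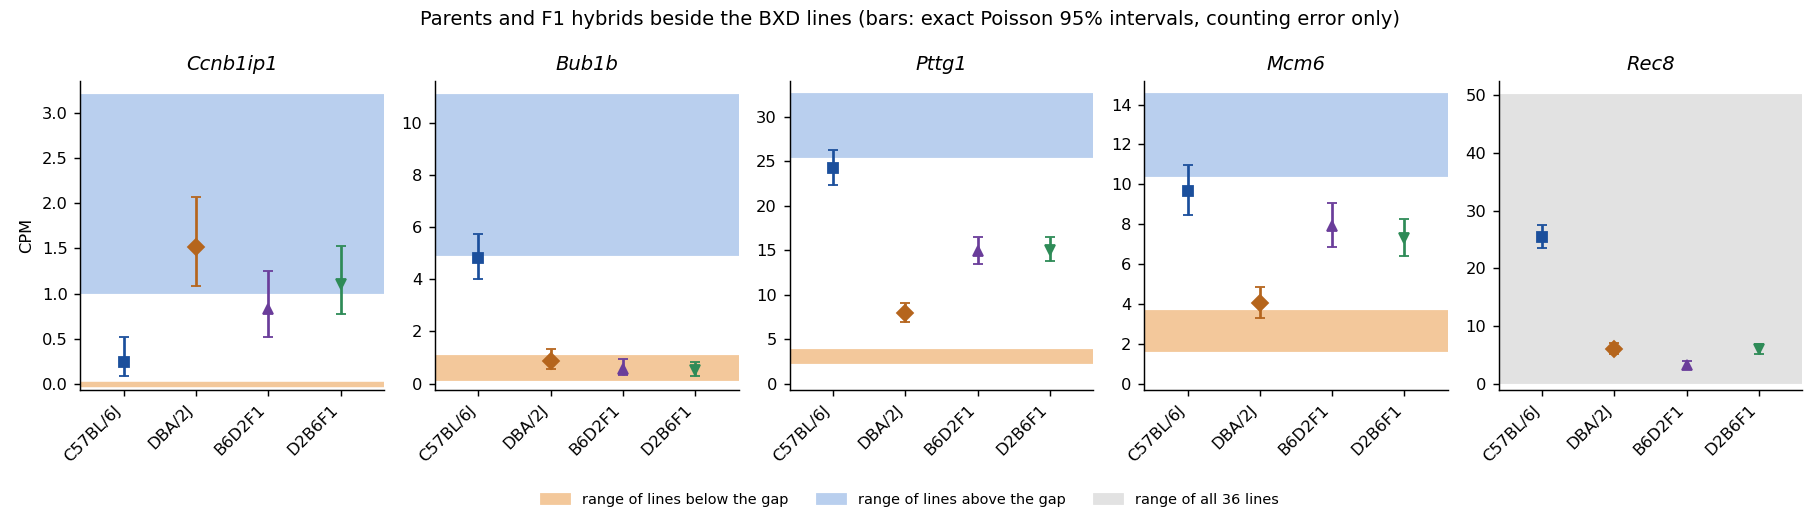
Level in CPM of the 5 genes in C57BL/6J, DBA/2J and the 2 hybrids, with exact Poisson 95% intervals as bars. Orange and blue bands span the BXD lines below and above the gap, and the grey band spans all 36 lines for Rec8. In Bub1b both hybrids lie in the low band, while in Pttg1 and Mcm6 they lie between the bands.

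The parents did not simply sit at the levels of the lines. On a linear scale on which the top of the low lines is 0 and the bottom of the high lines is 1, C57BL/6J stood at 0.891 for Mcm6, 0.968 for Bub1b and 0.944 for Pttg1, but at 0.236 for Ccnb1ip1. DBA/2J stood at 0.0556, −0.0487, 0.190 and 1.51 for the same genes in that order. The same was seen beyond these genes: of the 69 genes with a gap, DBA/2J lay inside it in 58 and C57BL/6J in 33, beside 62 for B6D2F1 and 59 for D2B6F1. With 1 library for each parent, what sets a parental library apart from the lines was not tested, and parental differences are given as sizes only. On the log2 scale C57BL/6J exceeded DBA/2J by 2.35 in Bub1b, 2.05 in Rec8, 1.60 in Pttg1 and 1.25 in Mcm6, and the difference in Ccnb1ip1 was −2.31. Among 12166 genes with at least 5 CPM in either parent, 62 (0.51%) were higher in C57BL/6J by at least 1 log2 unit and 17 (0.14%) were lower. Pttg1, Mcm6 and Rec8 were among the 62. Neither parent reached 5 CPM in Bub1b or Ccnb1ip1, so those genes were outside this count.

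Rec8, the meiotic kleisin gene, also on chromosome 14, had the widest range of the group. It ran from 4 reads and 0.153 CPM (0.0418 to 0.393) in BXD87 to 1043 reads and 50.0 CPM (47.0 to 53.1) in BXD98, a 326-fold span, with a median of 4.86 CPM and an SD of 1.98 log2 units over the 36 lines. Its widest step, between 1.90 CPM in BXD101 and 2.82 CPM in BXD29, left 12 lines below and 24 above, and counting intervals of those neighbours overlapped. At the top, 4 lines stood apart from the rest: BXD98 and BXD49 (48.8 CPM, 45.6 to 52.2) did not differ beyond counting error, nor did BXD51 (41.6 CPM, 39.6 to 43.6) and BXD56 (39.7 CPM, 37.2 to 42.4). Next came C57BL/6J at 25.4 CPM (23.5 to 27.5) and BXD95 at 23.6 CPM (21.7 to 25.6), whose intervals overlapped, and then BXD48 at 14.03 CPM (12.4 to 15.9). DBA/2J with 6.08 CPM (5.17 to 7.09) and D2B6F1 with 6.00 CPM (5.19 to 6.90) did not differ beyond counting error. B6D2F1 was lower, at 3.19 CPM (2.55 to 3.94), with no overlap with the reciprocal hybrid and with all hybrid intervals below the parental mean of 15.8 CPM.

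The genes were compared by the side of the widest step on which each line fell. The 4 genes with a gap gave 14 of the 16 possible combinations of low and high, and no combination held more than 6 lines. All 4 were high in BXD95 and BXD100 only, and all 4 low in BXD85 only; 16 lines had 2 of the 4 high, 11 had 3 and 6 had 1. Among the 10 pairs of the 5 genes, lines on the same side numbered 14 (Ccnb1ip1 and Bub1b) to 23 (Ccnb1ip1 and Rec8), and counting opposite sides as a match too, the best match of a pair ranged from 19 to 23. Over 2085 pairs of gap genes on different chromosomes the best match had a median of 20, and 4 pairs (0.192%) reached 31 of the 36. On the same chromosome, 57 of 193 pairs (29.5%) did so, with a median of 23.

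The genes most like each member in this measure were searched among 189 genes with a step of at least 0.5 log2 units. For Ccnb1ip1 all 3 lay on chromosome 14 and ran the opposite way. Slc39a2, a zinc transporter gene 12 measured genes away, parted the lines alike in 36 of 36 and was at 8.28 CPM or more in the 9 lines without Ccnb1ip1 reads and at 5.03 CPM or less in the other 27. Slc39a2 was at 10.1 CPM in C57BL/6J and 4.71 in DBA/2J. Ppp1r3e, which encodes a glycogen-targeting subunit of protein phosphatase 1, matched in 34 lines at 45 genes away, and Tmem260 in 33 lines at 8 genes away. For Pttg1 the closest was Ublcp1, the gene of a nuclear proteasome phosphatase, 7 measured genes away on chromosome 11, with 35 of 36 lines on the same side, and the next, the tubulin gene Tubb6 on chromosome 18 and the amino acid transporter gene Slc36a1 on chromosome 11, had 27 each.

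For Mcm6 the closest were the troponin genes Tnnt2 and Tnni1, 74 and 72 measured genes away on chromosome 1, each with 31 lines on the same side. Tnnt2 itself had a step of 4.24, between lines at up to 0.153 CPM and lines from 4.39 CPM. The third, 2310042D19Rik on chromosome 4, ran opposite in 27. For Bub1b no gene passed 29 lines. Prrg4, a membrane protein gene 50 measured genes away on chromosome 2, had that number. The gene 1700063D05Rik and the heat shock cognate gene Hspa8, both on chromosome 9, had 28. Of the 2085 pairs of gap genes on different chromosomes, 10 reached that value (0.480%). That share is per pair of gap genes, while neither of these genes had a gap and both were the best of a search among 189 genes. It therefore does not measure how rare such a match is.

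**Figure D3:**
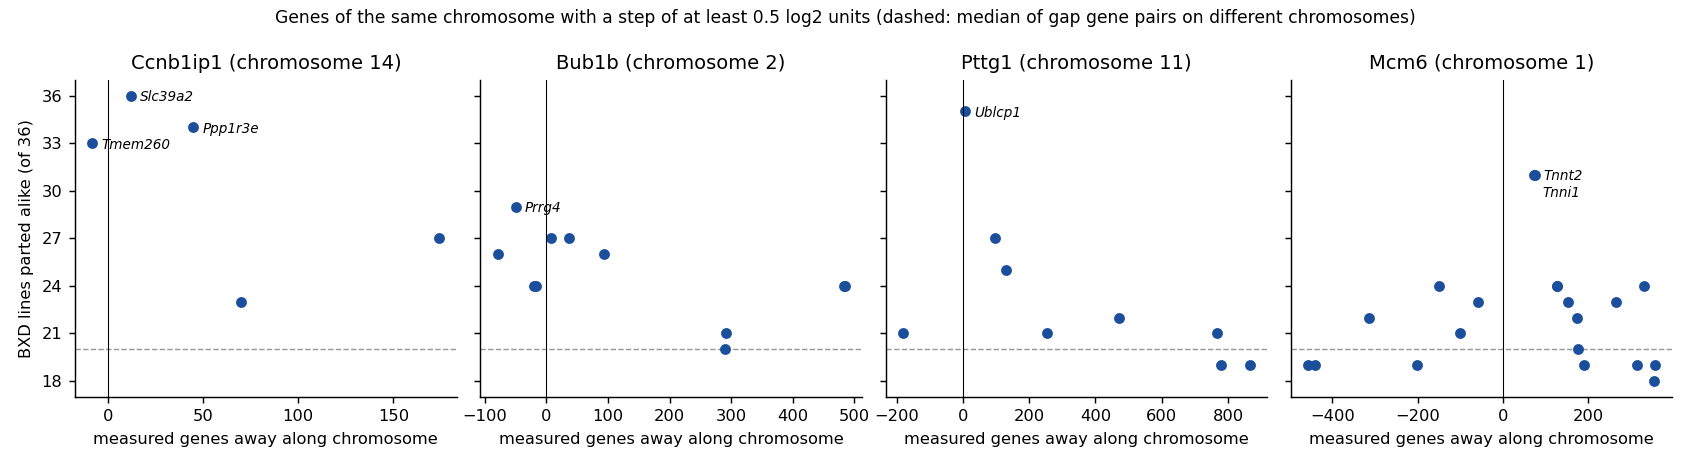
Genes of the same chromosome with a step of at least 0.5 log2 units, by their distance from the member in measured genes (x axis) and by the number of the 36 BXD lines parted alike, in the same or the opposite direction (y axis). The dashed line at 20 is the median of gap gene pairs on different chromosomes. Slc39a2 reaches 36 beside Ccnb1ip1 and Ublcp1 reaches 35 beside Pttg1.

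The closest neighbours on the chromosome did not share the steps. Among the 5 measured genes on either side of each member, 50 in all, none had a step of 0.5, the median step was 0.043 and parental differences lay between −0.37 and 0.52 log2 units. The pairs next to Mcm6, R3hdm1 and Ubxn4 on one side and Dars and Cxcr4 on the other, had steps of 0.022, 0.027, 0.024 and 0.067. Beside Bub1b stood Srp14 and Bmf, with steps of 0.080 and 0.11, and Pak6 and Ankrd63, with 0.041 and 0.27. Ankrd63 ran without a gap from 0.726 to 44.3 CPM. The steps beside Pttg1 were those of the GABA receptor gene Gabrb2 (0.062) and Atp10b (0.071), and Slu7 (0.024) and C1qtnf2 (0.11). Around Rec8 the steps were 0.027 for Rnf31, 0.039 for the interferon factor gene Irf9, 0.021 for Ipo4 and 0.027 for Tm9sf1. The widest step of the 50 was 0.48, in Rpph1, the RNA component of RNase P next to Ccnb1ip1, which ran without a gap from 0.171 to 9.56 CPM, while Parp2 (0.12), Ttc5 (0.056) and 3632451O06Rik (0.077) around it had smaller steps.

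The genes most like Rec8 lay on other chromosomes. Fggy, a carbohydrate kinase gene on chromosome 4, 1700019G17Rik on chromosome 6 and 1700030C10Rik on chromosome 12 each had 31 of 36 lines on the side of Rec8. These are not separate likenesses, since Fggy and 1700019G17Rik fell on the same side as each other in every line. The step of 1700030C10Rik also left 15 lines below. With at least 4 lines on each side in place of 6, the step of Rec8 moved and its match with Fggy became 19. All 3 had gaps, of 2.75, 2.32 and 2.03 log2 units. Fggy was at most 1.88 CPM in 15 lines and at least 13.1 CPM in 21, with 12.2 CPM in C57BL/6J, 2.05 in DBA/2J, and 3.82 and 3.46 in B6D2F1 and D2B6F1. As in Rec8, both hybrids stood nearer to DBA/2J. Cdk5rap1 on chromosome 2, a tRNA-modifying enzyme gene, was on the opposite side in 30 lines, and Ddx4 on chromosome 13, the germ-cell RNA helicase gene, on the same side in 28. Ddx4 ran from 0.737 to 13.7 CPM over the lines, with 3.26 CPM in C57BL/6J and 2.28 in DBA/2J.

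Taking the sides of Ccnb1ip1 and Fggy jointly, a grouping chosen after the values were seen and so without a test, set the highest Rec8 lines apart. The 4 lines with no Ccnb1ip1 reads and high Fggy were the 4 highest, BXD98, BXD49, BXD51 and BXD56, at 39.7 to 50.0 CPM (842 to 1710 reads). The 5 lines with no Ccnb1ip1 reads and low Fggy had 0.440 to 4.12 CPM of Rec8 (11 to 102 reads). With Ccnb1ip1 present, Rec8 ran from 1.31 to 23.6 CPM (26 to 583 reads) in 17 lines with high Fggy and from 0.153 to 4.59 CPM (4 to 104 reads) in 10 lines with low Fggy. These last 3 ranges overlapped one another, and the first overlapped none of them. Fggy serves here only as the gene whose pattern was most like that of Rec8.

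**Figure D4:**
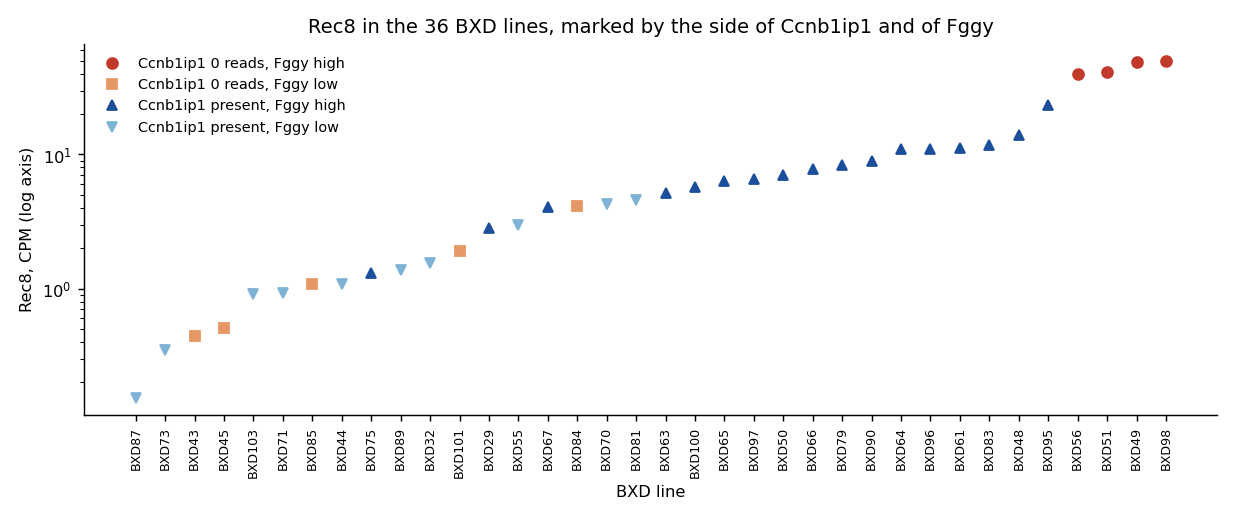
Rec8 in each of the 36 BXD lines, in CPM on a log axis, sorted from lowest to highest. Symbols mark whether Ccnb1ip1 had 0 reads or was present and whether Fggy was on its low or high side. The 4 circles, 0 Ccnb1ip1 reads with high Fggy, are the 4 highest lines, at 39.7 to 50.0 CPM.

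Other division genes were examined in 6 lists, which do not cover every such gene. The lists were dividing cells, spindle checkpoint and anaphase, replication licensing, cohesin, meiotic recombination and synapsis, and cyclins with their kinases. Of 154 symbols, newer and older names of a gene included, 149 were found in the table and 111 had a mean of at least 1 CPM. The gaps of Ccnb1ip1, Bub1b, Pttg1 and Mcm6 were the only 4 in these lists. Of the other 106 genes 0 had one, a share near the 0.476% over all genes. Outside the lists, Mcmdc2 on chromosome 1, a gene named for an MCM domain, had a gap of 2.24. Without the 5 members the median step was 0.058, beside 0.045 over all 14487 genes. Of the 65 list genes with at least 5 CPM in a parent, Pttg1, Mcm6 and Rec8 were higher in C57BL/6J by 1 log2 unit and no other was, and none was lower, beside 0.51% and 0.14% over all genes. With shares so small over all genes, neither count says that the other list genes differ from the rest of the table.

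The partners and relatives of Mcm6, Bub1b, Pttg1 and Rec8 named here had no gap where their mean reached 1 CPM. The other subunits of the MCM ring had steps of 0.043 (Mcm2), 0.080 (Mcm3), 0.031 (Mcm4), 0.058 (Mcm5) and 0.041 (Mcm7), and Mcm4, for example, kept between 16.1 and 21.5 CPM. Bub3, the checkpoint partner of BubR1, ran from 63.3 to 98.1 CPM with a step of 0.040, and its relative Bub1 never passed 15 reads in a line (0 to 0.583 CPM). Espl1, the separase gene that securin inhibits, ran from 0.924 to 2.29 CPM with a step of 0.14. Rad21, the kleisin of mitotic cohesin, stayed between 160 and 215 CPM with a step of 0.017, and Stag3, a meiotic cohesin subunit, ran from 0.797 to 6.39 CPM. The widest step in the lists beside the members' was 0.37, in the S and G2 cyclin gene Ccna2, followed by 0.23 in Rrm2, the nucleotide reductase subunit gene.

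**Figure D5:**
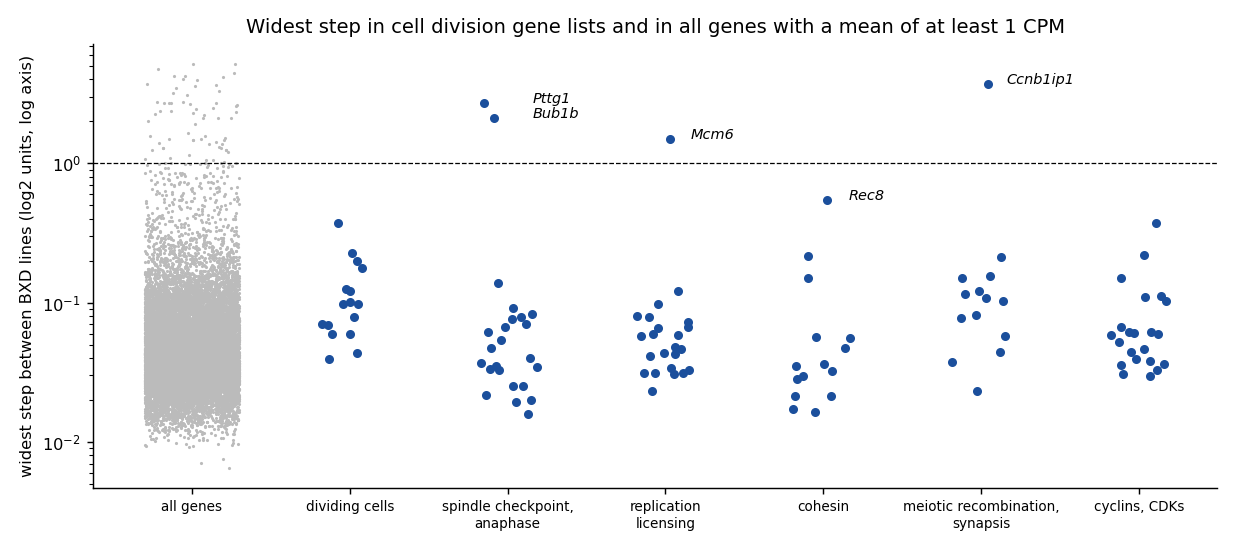
Widest step between neighbouring BXD lines, in log2 units on a log axis, for all 14487 genes with a mean of at least 1 CPM (grey) and for the genes of 6 cell division lists (blue). The dashed line is the limit of 1 log2 unit. The members stand above the other genes of their lists, which have steps of at most 0.37.

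Markers of dividing cells were compared with the gap genes by their sum. The proliferation marker Mki67 ran from 0.551 to 5.75 CPM and the topoisomerase gene Top2a from 0.532 to 3.15 CPM over the lines, Cdk1 stayed at or below 1.09 CPM and Ccnb1 at or below 8 reads. All 24 genes of this list were detected, and their sum ran from 47.3 to 71.0 CPM. Sums in low and high lines overlapped for each gap gene. They were 48.7 to 62.0 against 47.3 to 71.0 CPM for Ccnb1ip1 and 47.5 to 62.5 against 47.3 to 71.0 for Bub1b. Those for Pttg1 were 47.5 to 71.0 against 47.3 to 62.5, and those for Mcm6 47.3 to 62.5 against 47.5 to 71.0. Median sums, low against high, were 56.5 and 55.6 CPM for Ccnb1ip1 and 56.2 and 52.8 for Bub1b. For Pttg1 they were 54.5 and 56.5, and for Mcm6 54.5 and 55.9. Ranges are set by their extreme lines, so overlap alone says little, and single markers were not compared by side. The 12 germ-cell genes summed to 3.07 to 16.4 CPM over the lines, of which Ddx4 alone gave 0.737 to 13.7 CPM, and only Ddx4 and Dazl had a mean of at least 1 CPM. Prm2, Tnp1, Acrv1, Odf1 and Boll, genes of later germ cells, never passed 2 reads in a line. Others of the list went higher: Prm1, Tnp2, Tex101, Spata19 and Piwil1 reached 14, 6, 7, 12 and 19 reads in that order. Library totals of low and high lines overlapped for all 4 genes.

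Between the BXD lines and the other 4 libraries, edgeR called 0 of 16198 genes (0%) at an adjusted p under 0.05, with 163 at an unadjusted p under 0.05, and DESeq2 also called 0, with 155. Between the 2 hybrids and the 38 inbred strains, edgeR called 0 of 16434 genes (0%), with 109 at an unadjusted p under 0.05, and DESeq2 0, with 100. None of the 125 other list genes tested in the first comparison and none of the 131 in the second was called, with 78 and 56 of them positive, beside 8420 of 16198 and 7698 of 16434 over all genes. For the members these contrasts are a description only, because the spread between strains for which they were picked also sets their standard errors.

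The log2 differences, BXD lines minus the other 4 libraries, were 0.70 ± 1.06 (SE) for Bub1b, 0.41 ± 0.77 for Ccnb1ip1, 0.25 ± 0.53 for Mcm6, −0.05 ± 0.73 for Pttg1 and −0.04 ± 0.91 for Rec8. Single libraries decided them: without C57BL/6J the difference was 2.05 in Bub1b, 0.11 in Ccnb1ip1, 0.41 in Mcm6, 0.24 in Pttg1 and 0.95 in Rec8. Without DBA/2J it was 0.74 in Ccnb1ip1, 0.05 in Mcm6, −0.27 in Pttg1 and −0.22 in Rec8. Without one or the other hybrid it was 0.41 and 0.38 in Bub1b and −0.33 and −0.23 in Rec8 (B6D2F1 and D2B6F1 in that order). Hybrids minus inbred strains gave −2.31 ± 1.75 (SE) for Bub1b, in which both hybrids stood below 16 of the 36 lines and above 20, −1.13 ± 1.41 for Rec8, −0.33 ± 1.04 for Ccnb1ip1, −0.16 ± 0.73 for Mcm6 and −0.0011 ± 1.00 for Pttg1. With B6D2F1 or D2B6F1 left out the Bub1b value was −2.36 or −2.25 and that of Rec8 −0.75 or −1.67, while Ccnb1ip1 gave −0.14 or −0.56 and Mcm6 −0.21 or −0.10.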

How the data were processed

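The members and the gene lists were chosen with earlier results of these data known. RNA was prepared as stranded mRNA libraries and sequenced as 100-base single reads, per the labels' protocols. TopHat2 2.0.8, HTSeq 0.5.4p3, DESeq and the assembly mm9 are named in the submitters' processing notes, without settings or annotation, so how reads shared by near-identical copies were counted is not given in the sources used here. The authors deposited whole-number read counts for 23955 gene symbols, which were the source of every result. They also deposited a normalized signal for 15251 names, counts divided by 1 size factor per library, used for alternatives only.

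CPM and log2 CPM (prior count 2) were computed with edgeR 4.0.16 in R 4.3.3 after TMM scaling. Steps were taken between sorted values of the 36 lines with at least 6 lines on each side, and lines on either side were counted, never averaged or tested. Contrasts used edgeR's quasi-likelihood test on all 40 libraries, filterByExpr and Benjamini-Hochberg adjustment over all genes tested, and DESeq2 1.42.0 was the other tool. The SE of a log2 difference was derived as its absolute value divided by the square root of the test's F statistic. Both the contrasts and the steps were also run on simulated data, and no statement here rests on how they performed. Gene order came from RefSeq on GRCm38.p6, which placed 14430 of 14487 genes, and since the counts are on mm9, no gene coordinates are given. Promoter windows carry RefSeq's own GRCm38.p6 coordinates.

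Named genes were the members and the 3 genes most like each in sides of lines, with ties broken by the wider step. Also named were the 2 nearest measured genes on each side. From the lists came genes past a limit, the 2 with the widest steps under 1, and close relatives. Stag3, Ddx4, Cdk5rap1 and Mcmdc2 were added after their values were seen. Marker lists also covered oligodendrocyte precursors (386 to 529 CPM summed over the lines), microglia (204 to 347), ependyma and tanycytes (265 to 332) and choroid plexus (95.0 to 978).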

Additional observations from a re-analysis of the deposited data

How the results depend on the processing

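In Ccnb1ip1, Bub1b, Pttg1 and Mcm6 all 36 lines kept their side of the gap under 6 alternatives (DESeq2 size factors, library totals alone, prior counts of 0.5 and 5, at least 4 lines on each side, and the deposited normalized table). Their steps ran from 2.54 to 5.62, 2.02 to 2.19, 2.67 to 2.73 and 1.46 to 1.51 in that order, and the 5.62 for Ccnb1ip1, with a prior count of 0.5, shows how far a step above lines at 0 reads is set by that choice. TMM factors of the lines lay between 0.986 and 1.018, so changed scaling could hardly carry a line across the gaps of these 4 genes. In Rec8 the step ran from 0.52 to 0.75, never a gap. With at least 4 lines on each side it moved to 32 lines below, leaving 16 of 36 lines on their former side, and the match with Fggy went from 31 to 19, so that likeness depends on the dividing line. The alternatives for matches between genes were chosen after seeing the data. Without a minimum mean, 104 genes had a gap instead of 69. Leaving out each hybrid in turn, the contrast with inbred strains called 0 to 1 genes (Ide, without D2B6F1), and leaving out each of the 4 other libraries, the BXD contrast called 0 to 0. Differences of the members moved with single libraries, as given with their values, and those near 0 changed sign: without C57BL/6J, Pttg1 became 0.24 and Rec8 0.95 in the BXD contrast (lowest values −0.27 without DBA/2J and −0.33 without B6D2F1), and between hybrids and inbred strains Pttg1 became 0.0090 with DESeq2, 0.00063 without a filter and 0.0099 without B6D2F1 (−0.0063 without D2B6F1). Leaving out a hybrid rests its group on a lone library, assumed to vary like the others. No paired analysis was possible because the labels tie no BXD line to a particular parental or hybrid library. Read numbers limit Ccnb1ip1 and the low lines of Bub1b most, and 1 library per strain leaves the spread within a strain unmeasured.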
